A study of Mus musculus with 6 samples.

Results

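The expression of 43 genes of blood vessels and angiogenesis was examined in whole uteri of *Sox17f/f* and *Sox17ed/ed* mice on gestational day (GD) 3.5, the time at which the uterus becomes receptive to the embryo. The genes were taken by name out of 14790 genes tested. They comprised 36 genes of endothelial cells, of which 19 encode junction, surface or secreted proteins, 9 encode receptors, 4 encode transcription factors and 4 mark lymphatic endothelium, and a separate set of 7 ligands. All 43 genes had a signal well above background on each of the 6 arrays, so none was lost to the filter on dim probes.

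Both genotypes carry *Sox17* alleles flanked by loxP sites, and *Sox17ed/ed* mice also carry *Ltf* iCre, a recombinase switched on in the uterine epithelium after puberty. Control *Sox17f/f* mice were littermates without it. Females 8 to 10 weeks old were mated with fertile males, embryos were flushed from the horns on GD 3.5, and total RNA of 3 biological samples of each genotype was hybridised to single-colour Agilent arrays. The recombinase is not directed to vessels, and the study's staining still found SOX17 in isolectin-binding cells of the stromal compartment of *Sox17ed/ed* uteri.

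Endothelial cells line blood and lymphatic vessels, and they are recognised by junction proteins, by receptor tyrosine kinases and by ETS-family transcription factors. Vessels grow and become permeable when ligands of the VEGF family, made largely by surrounding cells, bind receptors on the endothelium, whereas angiopoietins act through TEK and steady or loosen the vessel wall. In the uterus, permeability rises where an embryo attaches, and a new vessel bed forms as the stroma decidualises.

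The targeted gene was read first. The log2 signal of *Sox17* was 12.21, 12.07 and 12.22 in the *Sox17f/f* uteri and 9.75, 9.59 and 9.81 in the *Sox17ed/ed* uteri. Its log2 fold change, *Sox17ed/ed* minus *Sox17f/f*, was -2.45 (SE 0.09, adjusted p = 2.56e-05 by limma, adjusted across all genes by the Benjamini-Hochberg method, as for every adjusted p given here), and every array followed its label. The remaining signal was well above background on all 3 *Sox17ed/ed* arrays. *Sox17* is itself made by arterial endothelium, and these arrays do not separate that source from the epithelium.

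Of the 43 genes, 22 passed an adjusted p of 0.05, among 19.0% of all genes tested. Lower signal in *Sox17ed/ed* uteri was found for 20 genes, where 10.1% of all genes were called lower, and higher signal for 2 genes, where 8.82% of all genes were called higher. The median log2 fold change of the 43 genes was -0.25, beside -0.00 for all genes. In 24 genes every *Sox17ed/ed* array lay below every *Sox17f/f* array, as in 21.0% of all genes, and in 3 genes every one lay above, as in 19.5% of all genes. The change was below 1 on the log2 scale in 41 of the 43 genes, called or not, as in 13882 of 14790 genes tested. In RNA of whole uterus, fewer endothelial cells and less RNA of these genes in each cell cannot be told apart.

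The call rested on few arrays for many of these genes. With *Sox17f/f* replicate 1 left out, 10 of the 43 genes were called lower, and with *Sox17ed/ed* replicate 1 or *Sox17ed/ed* replicate 3 left out, 12 and 13 were. Over all genes tested, the lower calls also went down, from 1500 to 861, 947 and 1040 with the same arrays left out. At the study's thresholds, an unadjusted p under 0.01 and a fold change of at least 1.4, 9 genes were lower and 2 higher. Of all genes tested, 12.5% passed these thresholds, 6.48% being lower and 6.02% higher.

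**Figure D1:**
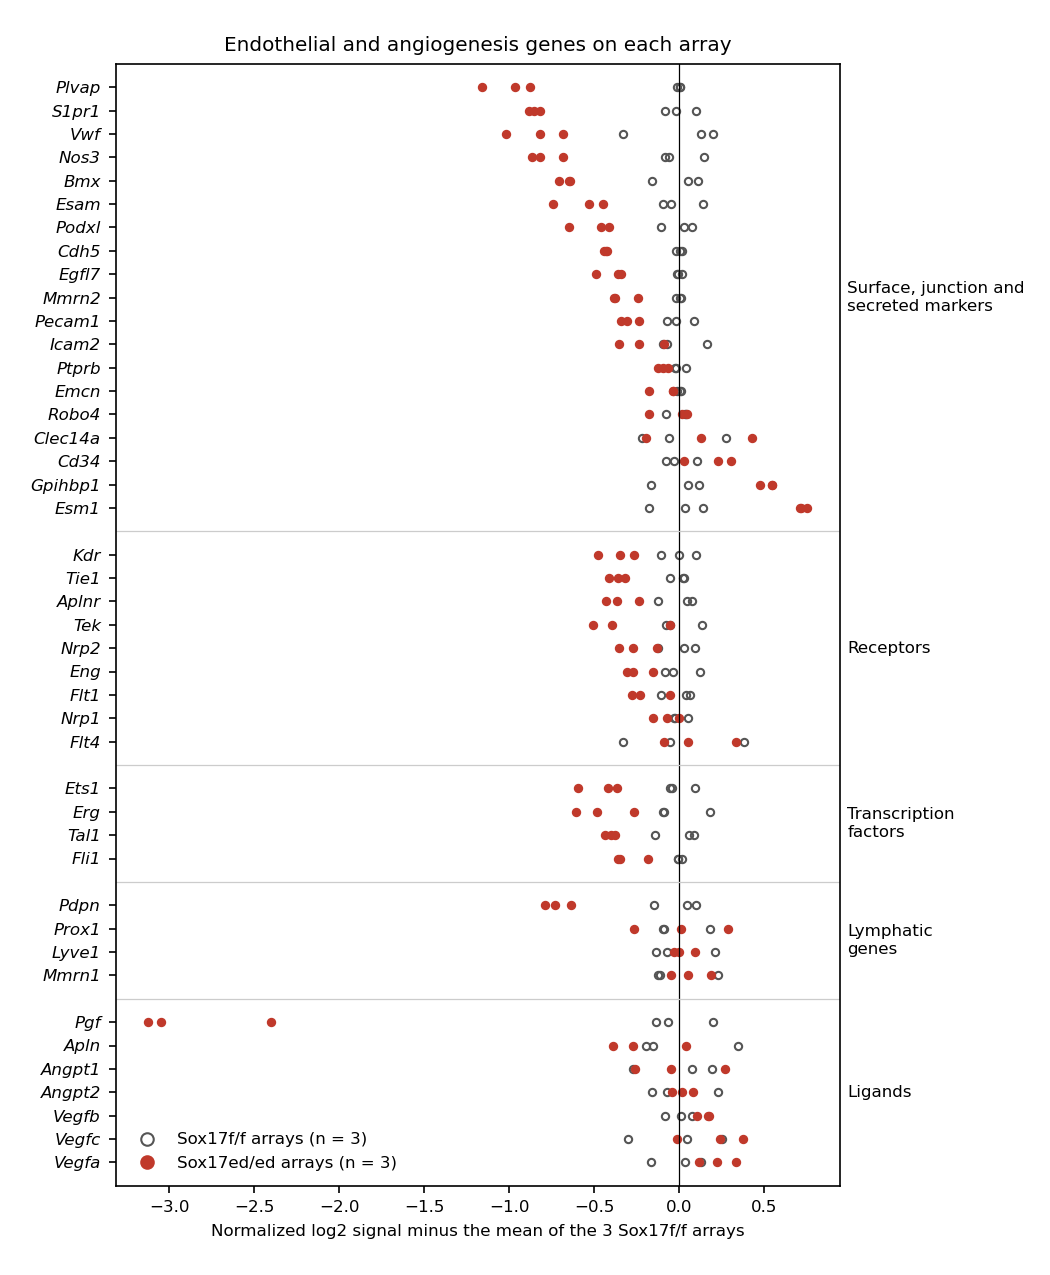
Log2 signal of each of the 43 genes on each of the 6 arrays, shown as the difference from the mean of the 3 *Sox17f/f* arrays (open points *Sox17f/f*, filled points *Sox17ed/ed*), with genes grouped by role. The filled points of 24 genes lie wholly left of the open ones, those of *Pgf* farthest, and those of *Esm1*, *Gpihbp1* and *Vegfb* lie wholly to the right.

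For the 36 endothelial genes, 19 were lower, 2 were higher and 15 did not pass, with a median log2 fold change of -0.31. The lower genes were 52.8% of them, beside 10.1% of all genes. Their mean log2 signal was 10.46, 10.46 and 10.46 on the *Sox17f/f* arrays and 10.18, 10.21 and 10.17 on the *Sox17ed/ed* arrays. For the list as a whole the arrays of a genotype were close to each other and the genotypes apart. The 7 ligands held 1 gene called lower, none called higher, and a median of 0.02. That gene was 14.3% of the ligands, near the 10.1% of all genes called lower.

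The group of 19 junction, surface and secreted proteins held 11 of the decreases and both of the increases. The lower genes were 57.9% of the group, where 10.1% of all genes were called lower and 8.82% higher. The largest decrease was that of *Plvap*, which encodes the diaphragm protein of fenestrated capillaries and venules. Its log2 signal was 12.53, 12.54 and 12.51 in *Sox17f/f* uteri and 11.37, 11.56 and 11.65 in *Sox17ed/ed* uteri. This was a log2 fold change of -1.0 (SE 0.09, adjusted p = 7.15e-04), with a wide gap between the genotypes. A second probe for *Plvap* gave a log2 fold change of -1.01.

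*S1pr1* encodes the receptor through which sphingosine 1-phosphate tightens the endothelial barrier, and it is also used by lymphocytes leaving lymphoid organs. Its log2 signal was 9.88, 10.00 and 9.82 in *Sox17f/f* uteri and 9.02, 9.05 and 9.08 in *Sox17ed/ed* uteri, and it fell by 0.85 (SE 0.07, adjusted p = 6.38e-04). *Nos3*, the endothelial nitric oxide synthase that relaxes the vessel wall, measured 11.89, 12.09 and 11.87 against 11.08, 11.26 and 11.13. Its log2 fold change was -0.79 (SE 0.09, adjusted p = 0.00241), and a second probe gave -0.85. For both genes the 3 *Sox17ed/ed* arrays were close together and well below the lowest control array.

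*Vwf* encodes von Willebrand factor, the platelet-tethering protein that endothelium stores and secretes. Its values were 13.24, 12.78 and 13.31 in *Sox17f/f* uteri and 12.29, 12.43 and 12.09 in *Sox17ed/ed* uteri, a log2 fold change of -0.84 (SE 0.16, adjusted p = 0.0171). Although the genotypes did not overlap, the arrays were spread more widely than for the other genes of this group with large decreases, and the call was lost without *Sox17f/f* replicate 1, *Sox17ed/ed* replicate 1 or *Sox17ed/ed* replicate 3. *Bmx*, a cytoplasmic tyrosine kinase of arterial endothelium, had values of 9.0, 8.73 and 8.94 against 8.25, 8.18 and 8.25, and fell by 0.66 on the log2 scale (SE 0.09, adjusted p = 0.00403). The *Sox17ed/ed* values of *Bmx* hardly varied, and no array read its second probe well above background.

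*Esam*, an adhesion molecule of tight junctions in endothelium and platelets, measured 11.95, 11.90 and 12.14 in *Sox17f/f* uteri and 11.55, 11.47 and 11.25 in *Sox17ed/ed* uteri. Its log2 fold change was -0.57 (SE 0.11, adjusted p = 0.0152). *Cdh5*, which encodes the VE-cadherin of adherens junctions, gave 11.416, 11.451 and 11.443 against 11.005, 11.013 and 10.997, with almost no spread within a genotype. It fell by 0.43 on the log2 scale (SE 0.06, adjusted p = 0.00390). *Pecam1*, the CD31 adhesion molecule by which vessels are commonly stained, gave 9.24, 9.18 and 9.34 against 8.91, 8.95 and 9.02. Its log2 fold change of -0.29 (SE 0.07, adjusted p = 0.0368) was among the smallest decreases called, and leaving out any 1 of the 6 arrays ended the call although the genotypes did not overlap.

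Of the remaining decreases in this group, *Podxl*, a sialomucin of the luminal face of endothelium that epithelia also make, had values of 7.85, 7.99 and 8.03 in *Sox17f/f* uteri and 7.54, 7.31 and 7.50 in *Sox17ed/ed* uteri. Its log2 fold change was -0.51 (SE 0.09, adjusted p = 0.0130). *Egfl7*, which encodes a matrix protein secreted by endothelium, had values of 15.57, 15.54 and 15.55 against 15.19, 15.21 and 15.06, and fell by 0.40 (SE 0.07, adjusted p = 0.0104). *Mmrn2*, a matrix protein of the emilin family made by endothelium, had values of 13.53, 13.49 and 13.52 against 13.13, 13.27 and 13.14, and fell by 0.33 (SE 0.07, adjusted p = 0.0193). In all 3 genes the genotypes stayed apart, with the *Sox17f/f* values of *Egfl7* and *Mmrn2* nearly the same on each array. The call of *Mmrn2* was lost when any of 4 arrays was left out, replicates 1 and 2 of *Sox17f/f* or replicates 1 and 3 of *Sox17ed/ed*.

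The 2 genes that rose encode proteins of specialised endothelium. *Esm1*, which encodes endocan, a secreted proteoglycan of the tip cells that lead vessel sprouts, measured 7.23, 7.55 and 7.44 in *Sox17f/f* uteri and 8.13, 8.12 and 8.16 in *Sox17ed/ed* uteri. It was 1.66-fold as high, a log2 fold change of 0.73 (SE 0.09, adjusted p = 0.00363). *Gpihbp1*, which encodes the protein that holds lipoprotein lipase on capillaries, measured 10.16, 10.38 and 10.44 against 10.87, 10.87 and 10.80, and was 1.44-fold as high (log2 fold change 0.52, SE 0.09, adjusted p = 0.0112). In both genes the control arrays were the more spread, and all 3 *Sox17ed/ed* arrays lay above them.

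The other 6 genes of this group did not pass the test. The adhesion molecule *Icam2* had a log2 fold change of -0.23 (95% interval -0.49 to 0.03), the sialomucin *Emcn* of capillaries and veins -0.08 (-0.25 to 0.08), the phosphatase *Ptprb*, which acts on TEK and VE-cadherin, -0.09 (-0.24 to 0.05), and the guidance receptor *Robo4* -0.04 (-0.24 to 0.17). *Clec14a*, a lectin-like surface protein, gave 0.12 (-0.35 to 0.59), and *Cd34*, a sialomucin that stromal fibroblasts also carry, gave 0.19 (-0.05 to 0.42). A second probe gave 0.50 for *Clec14a* and -0.17 for *Ptprb*, with overlap between genotypes in both. That of *Cd34* gave 0.26, with all 3 *Sox17ed/ed* arrays above the controls. For *Emcn*, *Ptprb* and *Robo4* the intervals hold no decrease as deep as the log2 fold change of *Plvap*, *S1pr1* or *Nos3*.

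**Figure D2:**
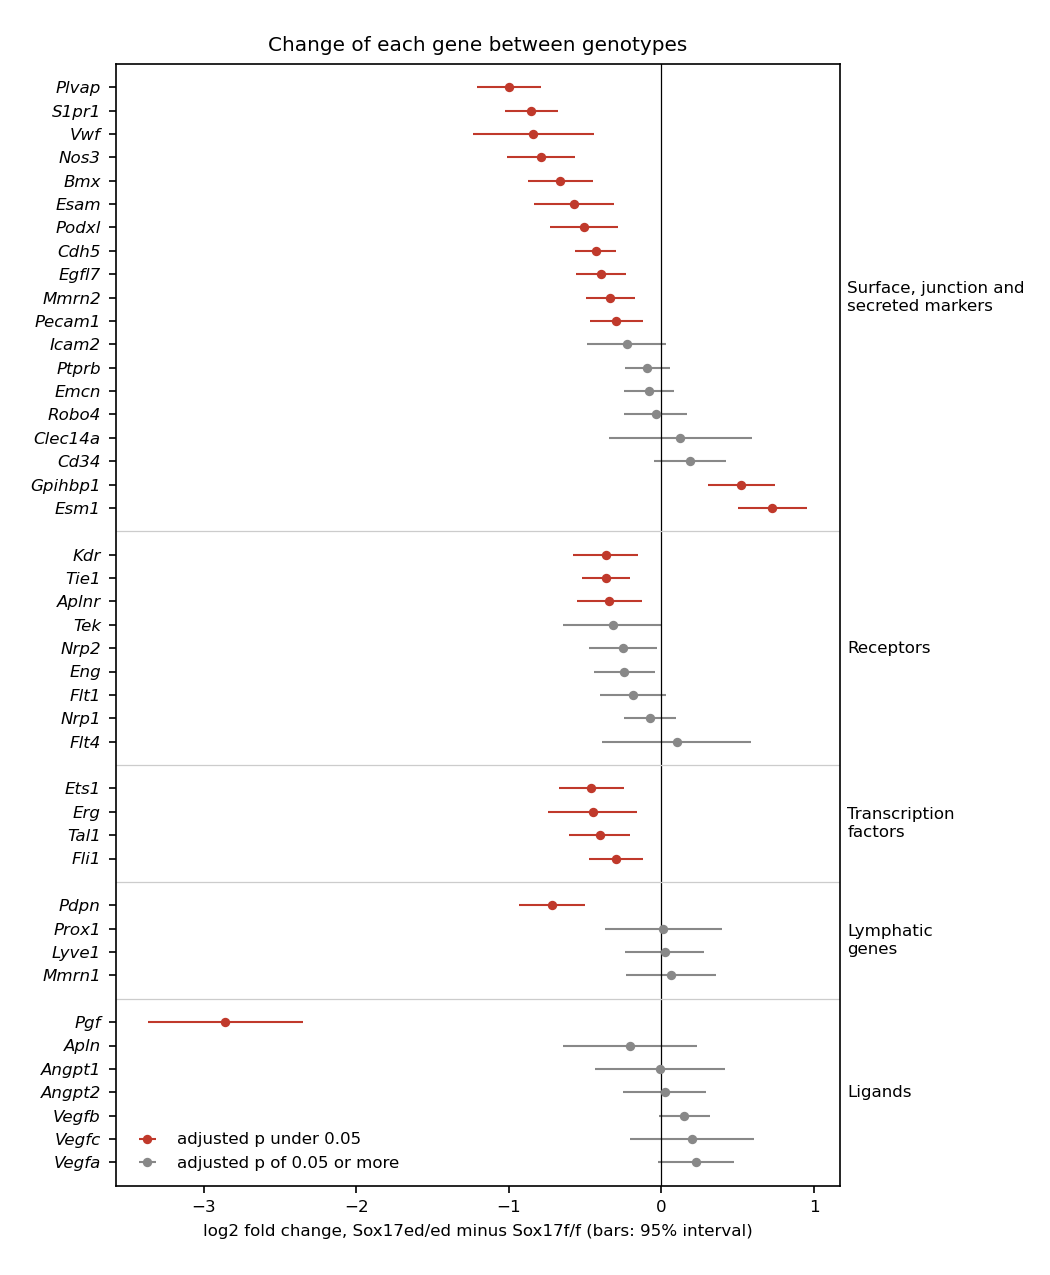
Log2 fold change (*Sox17ed/ed* minus *Sox17f/f*) of each of the 43 genes with its 95% confidence interval from the limma fit, grouped by role. Red points passed an adjusted p of 0.05 over all genes tested. *Pgf* at -2.86 lies far to the left of every other gene, and *Esm1* at 0.73 is the highest.

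All 4 transcription factors were called lower, beside 10.1% of all genes, with a median log2 fold change of -0.43. *Erg* and *Fli1* encode ETS factors that maintain endothelial identity, *Ets1* encodes an ETS factor of vessels and lymphocytes, and *Tal1* encodes a basic helix-loop-helix factor of blood and endothelium. *Ets1* measured 11.04, 10.91 and 10.89 in *Sox17f/f* uteri and 10.35, 10.58 and 10.53 in *Sox17ed/ed* uteri, a log2 fold change of -0.46 (SE 0.09, adjusted p = 0.0161), and its second probe gave -0.45. *Tal1* measured 9.26, 9.03 and 9.23 against 8.77, 8.80 and 8.74, and fell by 0.40 (SE 0.08, adjusted p = 0.0198). In both genes the 3 *Sox17ed/ed* arrays were below all controls.

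*Erg* measured 7.50, 7.23 and 7.23 in *Sox17f/f* uteri and 6.84, 7.05 and 6.71 in *Sox17ed/ed* uteri. Its log2 fold change of -0.45 (SE 0.12, adjusted p = 0.0490) was next to the threshold, and its second probe gave -0.38. *Fli1* gave 9.59, 9.61 and 9.59 against 9.23, 9.42 and 9.25, a log2 fold change of -0.30 (SE 0.07, adjusted p = 0.0379). By the probe tested, the genotypes did not overlap in either gene, but the calls were fragile. That of *Erg* was lost without any 1 *Sox17f/f* array and without *Sox17ed/ed* replicate 1 or 3, as was that of *Fli1*. That of *Tal1* was lost without any 1 array other than *Sox17f/f* replicate 2, and that of *Ets1* without *Sox17f/f* replicate 1.

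Among the 9 receptors 3 were lower and 6 did not pass, with a median log2 fold change of -0.25. The lower receptors were 33.3%, beside 10.1% of all genes. *Kdr* encodes VEGFR2, the main signalling receptor for VEGF-A. Its log2 signal was 11.16, 11.06 and 10.96 in *Sox17f/f* uteri and 10.79, 10.71 and 10.58 in *Sox17ed/ed* uteri, a log2 fold change of -0.37 (SE 0.09, adjusted p = 0.0353). The lowest control stood above the highest *Sox17ed/ed* array, but a second *Kdr* probe gave only -0.05, and with the mean of both probes *Kdr* was not called. The call also ended without any 1 array other than *Sox17f/f* replicate 3.

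*Tie1*, an orphan receptor kinase that modulates TEK, gave 10.31, 10.24 and 10.32 in *Sox17f/f* uteri and 9.97, 9.93 and 9.88 in *Sox17ed/ed* uteri. It fell by 0.36 on the log2 scale (SE 0.06, adjusted p = 0.0119), and the call was lost without *Sox17f/f* replicate 1. *Aplnr*, the apelin receptor of veins and growing vessels, gave 10.08, 9.91 and 10.11 against 9.80, 9.67 and 9.60, and fell by 0.34 (SE 0.09, adjusted p = 0.0423). Neither receptor overlapped between genotypes, though the call of *Aplnr* held only without *Sox17f/f* replicate 2 among the 6 arrays left out in turn.

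For the other receptors the log2 fold change was -0.32 for *Tek* (95% interval -0.64 to 0.00), the angiopoietin receptor, -0.25 for *Nrp2* (-0.48 to -0.03), a co-receptor for VEGF-C, and -0.24 for *Eng* (-0.44 to -0.04), a TGF-beta co-receptor. Adjusted p-values of these 3 genes were 0.152, 0.110 and 0.0941. *Flt1*, which encodes VEGFR1 and binds VEGF-A, VEGF-B and PlGF, had -0.19 (-0.40 to 0.03). *Nrp1*, a co-receptor for VEGF-A and semaphorins, had -0.07 (-0.24 to 0.09), and *Flt4*, which encodes VEGFR3 of lymphatic endothelium, had 0.10 (-0.39 to 0.59). Decreases and unchanged values could not be told apart for *Tek* and *Flt1*, whereas *Nrp2* and *Eng* had unadjusted intervals below 0 and failed only the adjustment. *Nrp2* was called with the mean of its probes (adjusted p = 0.0447), *Eng* with an intensity trend in the variance model (adjusted p = 0.0463) and *Tek* without *Sox17ed/ed* replicate 3 (log2 fold change -0.45, adjusted p = 0.0462).

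Of the 4 lymphatic endothelial genes, 1 was lower, where 10.1% of all genes were called lower. *Pdpn* encodes podoplanin, a mucin-like protein of lymphatic endothelium that fibroblasts and mesothelium also make. It measured 12.46, 12.40 and 12.21 in *Sox17f/f* uteri and 11.62, 11.72 and 11.57 in *Sox17ed/ed* uteri, a log2 fold change of -0.72 (SE 0.09, adjusted p = 0.00332), with no overlap, and its second probe gave -0.67. The other 3 genes overlapped between genotypes. *Lyve1*, the hyaluronan receptor, had a log2 fold change of 0.02 (95% interval -0.24 to 0.28), *Prox1*, the factor that specifies lymphatic identity, 0.01 (-0.37 to 0.40), and *Mmrn1*, a multimerin of lymphatic endothelium and platelets, 0.06 (-0.23 to 0.36). The sign of *Lyve1* and of *Prox1* changed with the array left out, and that of *Prox1* also with scaling by the 75th percentile in place of quantile normalization.

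The largest change of all 43 genes was in a ligand. *Pgf* encodes placental growth factor (PlGF), a member of the VEGF family that binds VEGFR1 and neuropilins. Its log2 signal was 7.81, 8.07 and 7.74 in *Sox17f/f* uteri and 5.47, 4.75 and 4.82 in *Sox17ed/ed* uteri, so that even the highest *Sox17ed/ed* array lay more than 2 units below the lowest control. The log2 fold change was -2.86 (SE 0.21, adjusted p = 3.64e-04), or 7.24-fold lower, by a single probe. The *Sox17ed/ed* signals were dim, though well above background on all 3 arrays, and the size of the decrease depended on the processing. With a normexp background correction, which lifts dim signals, the log2 fold change was -1.63, and *Pgf* was still called. It was also called without each array in turn.

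The other 6 ligands did not pass. *Vegfa*, the principal growth factor of blood vessels, measured 11.56, 11.66 and 11.36 in *Sox17f/f* uteri and 11.86, 11.64 and 11.75 in *Sox17ed/ed* uteri. The genotypes overlapped, its log2 fold change was 0.22 (95% interval -0.03 to 0.47, adjusted p = 0.185), and a second probe gave 0.42. *Vegfb*, which encodes a ligand of VEGFR1, had 0.15 (-0.02 to 0.32), with all 3 *Sox17ed/ed* arrays above the controls, and was called with the normexp correction (log2 fold change 0.25, adjusted p = 0.0425). *Vegfc*, the lymphatic growth factor, had 0.20 (-0.21 to 0.61).

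*Angpt1*, the angiopoietin that activates TEK, had a log2 fold change of -0.01 (-0.44 to 0.41), and *Angpt2*, its context-dependent antagonist, had 0.02 (-0.25 to 0.29). Both signs changed with the array left out, and that of *Angpt2* also with the normexp correction. *Apln*, which encodes apelin, had -0.21 (-0.65 to 0.24). *Pgf* and *Vegfa*, ligands of the same receptor, thus had differences of opposite sign, of which that of *Pgf* passed the test.

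**Figure D3:**
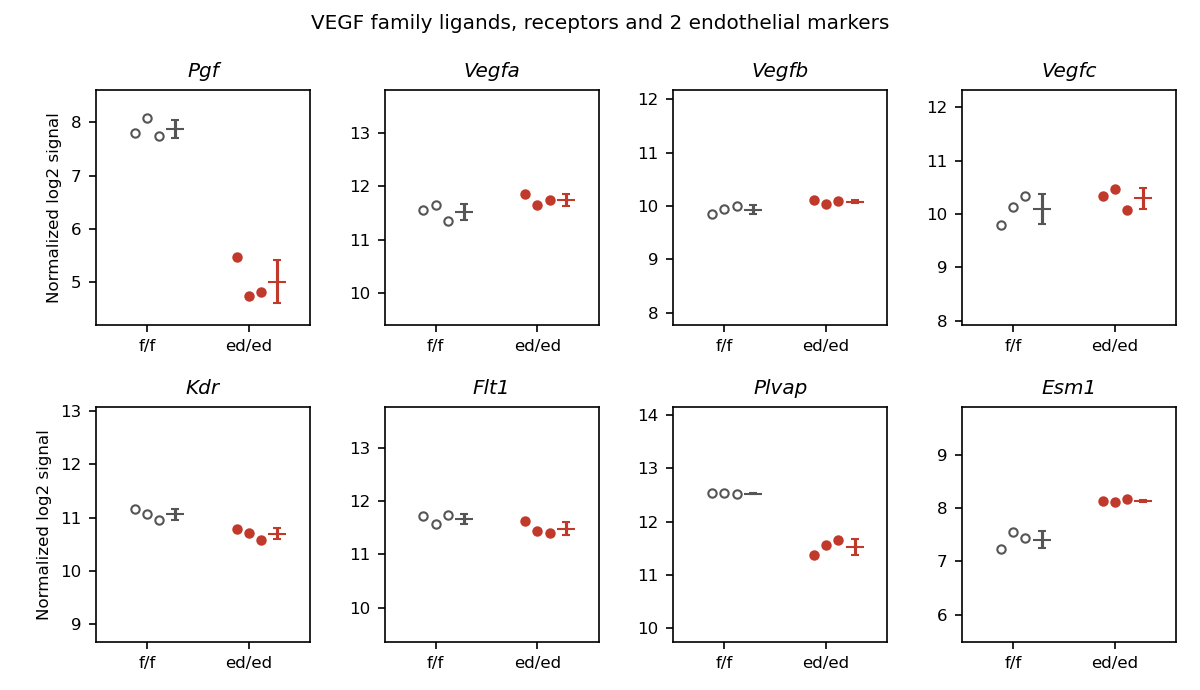
Log2 signal of *Pgf*, *Vegfa*, *Vegfb*, *Vegfc*, the receptors *Kdr* and *Flt1* and the endothelial genes *Plvap* and *Esm1*, with a point for each of the 3 arrays of a genotype and, beside them, the mean and SD. All panels span the same range of log2 signal. The *Pgf* points of the genotypes are separated by 2.27 on the log2 scale, while those of *Vegfa* and *Flt1* overlap.

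Several probes were available for 11 of the 43 genes, and in all 11 the probes changed in the same direction. The 6 called genes among them were *Plvap*, *Nos3*, *Pdpn*, *Ets1*, *Erg* and *Kdr*. Calls of 9 genes held in all 15 alternative settings, namely *Pgf*, *Plvap*, *S1pr1*, *Nos3*, *Bmx*, *Podxl*, *Pdpn*, *Esm1* and *Gpihbp1*, and the other 13 were lost in at least 1.

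Promoter letters were set beside these changes for the genes with a RefSeq window of 250 bases before to 50 after the transcription start. Windows were found for 25 of the 43 genes, among them 8 of the 20 lower genes. The letters CGGAAG or AGGAAG, longer forms around the ETS core GGAA, were searched on both strands, as were the letters AACAAT, a core sequence of SOX factors. The core GGAA alone was not counted. ETS letters were in 33.3% of the 33 windows of these genes and in 28.6% of the 14 windows of lower genes, beside 46.5% of all 32851 windows. SOX letters were in 12.1%, 7.1% and 10.7%. A match is a string of letters and not a bound site, and a window without one says nothing about the factor elsewhere.

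The windows of 4 genes are printed 5′ to 3′ with the ETS letters, or their reverse complement, in capitals. *Pgf* and *Esm1* are shown as the genes of the largest decrease and the largest increase, and *Tie1* and *Egfl7* as lower genes whose windows hold ETS letters. They were chosen after their values were seen.
Pgf promoter, GRCm38.p6, chr12:85177264-85177563, minus strand: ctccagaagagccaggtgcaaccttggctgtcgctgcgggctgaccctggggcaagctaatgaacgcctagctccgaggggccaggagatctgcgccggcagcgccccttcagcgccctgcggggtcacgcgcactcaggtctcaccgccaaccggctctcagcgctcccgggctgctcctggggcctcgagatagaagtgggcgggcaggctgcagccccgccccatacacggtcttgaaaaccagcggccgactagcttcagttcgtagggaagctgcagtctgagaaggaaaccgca
Esm1 promoter, GRCm38.p6, chr13:113209409-113209708, plus strand: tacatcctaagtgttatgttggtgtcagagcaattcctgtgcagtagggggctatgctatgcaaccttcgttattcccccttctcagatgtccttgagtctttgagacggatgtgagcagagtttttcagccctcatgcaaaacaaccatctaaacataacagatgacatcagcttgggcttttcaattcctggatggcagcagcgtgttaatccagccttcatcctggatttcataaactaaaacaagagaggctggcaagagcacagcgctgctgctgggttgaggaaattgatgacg
Tie1 promoter, GRCm38.p6, chr4:118489800-118490099, minus strand: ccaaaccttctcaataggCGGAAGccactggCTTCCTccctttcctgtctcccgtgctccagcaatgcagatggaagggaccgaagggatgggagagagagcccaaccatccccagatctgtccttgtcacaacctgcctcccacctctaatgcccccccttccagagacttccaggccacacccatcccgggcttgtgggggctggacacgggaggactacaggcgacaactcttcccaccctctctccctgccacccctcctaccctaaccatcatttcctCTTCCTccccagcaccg
Egfl7 promoter, GRCm38.p6, chr2:26580833-26581132, plus strand: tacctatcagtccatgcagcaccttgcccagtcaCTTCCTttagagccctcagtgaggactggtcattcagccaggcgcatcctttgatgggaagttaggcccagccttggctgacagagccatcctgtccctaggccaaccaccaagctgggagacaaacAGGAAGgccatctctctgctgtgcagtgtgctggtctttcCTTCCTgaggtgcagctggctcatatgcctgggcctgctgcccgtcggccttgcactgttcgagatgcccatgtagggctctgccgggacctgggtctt

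The windows of *Pgf* and *Esm1* hold none of the strings searched, though both hold the shorter ETS core GGAA. That of *Tie1* holds ETS letters 3 times, at -232, -219 and 34 bases from the start, and that of *Egfl7* also 3 times, at -216, -89 and -49. For *Pgf* and *Egfl7*, which have 2 and 3 windows in the table, the window farthest upstream is shown.

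Other genes of the same cells were read from lists of known markers. Of 35 other endothelial markers tested, *Sox17* included, 12 were lower, 3 were higher and 20 did not pass. The lower genes were 34.3% of the list, beside 10.1% of all genes. *Sox17* is the targeted gene, so its own decrease, counted among the 12, was set by the design and tells nothing of endothelium. The median log2 fold change was -0.31, or -0.29 with genes near background at their bound. Among the decreases, *Selp*, the P-selectin of venules and platelets, fell by 1.58 (SE 0.07, adjusted p = 4.90e-05), *Gja5*, which encodes an arterial connexin, fell by 1.20 (SE 0.16, adjusted p = 0.00370), and *Ackr1*, the chemokine-binding receptor of venules, fell by 1.09 (SE 0.11, adjusted p = 0.00129). *Sele*, the E-selectin, was called lower, but none of its *Sox17ed/ed* arrays was well above background, so its decrease is not bounded and has no rank. The 3 increases were *Efnb2*, an arterial ephrin, with a log2 fold change of 1.07 (SE 0.15, adjusted p = 0.00516), *Sox7*, a relative of *Sox17*, with 0.70 (SE 0.13, adjusted p = 0.0154), and *Cldn5*, the tight junction claudin of endothelium, with 0.52 (SE 0.09, adjusted p = 0.0118).

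Among 27 other angiogenic ligands and modulators tested, 6 were lower, 3 were higher and 18 did not pass, with a median of -0.18. The called genes were 33.3%, beside 19.0% of all genes. The largest decreases were those of *Thbs1*, which encodes the angiogenesis inhibitor thrombospondin 1 (log2 fold change -1.05, SE 0.14, adjusted p = 0.00455), *Slit3*, a ligand of ROBO receptors (-0.90, SE 0.09, adjusted p = 0.00154), and *Edn1*, the vasoconstrictor endothelin 1 (-0.81, SE 0.10, adjusted p = 0.00338). The increases were those of the class 3 semaphorins *Sema3a* (0.67, SE 0.07, adjusted p = 0.00203) and *Sema3f* (0.58, SE 0.08, adjusted p = 0.00505), which bind neuropilins, and of *Pdgfa* (0.42, SE 0.11, adjusted p = 0.0470), a growth factor for mesenchymal cells.

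Markers of cells that surround or travel in vessels were set beside these results. Mural cell markers had 2 lower and 1 higher gene of 10 and a median log2 fold change of -0.17, and their mean log2 signal ranged from 10.87 to 10.93 on the *Sox17f/f* arrays and from 10.68 to 10.73 on the *Sox17ed/ed* arrays. The lower ones were *Notch3*, with -0.64, and the pericyte gene *Rgs5*, with -0.41, whereas *Cox4i2* was higher at 0.29. Smooth muscle markers had 2 lower genes of 8 and a median of -0.28, with ranges of 14.01 to 14.11 and 13.60 to 14.08. Of the markers of erythroid cells and platelets, 1 of 5 tested was lower, the platelet integrin *Itga2b*, and the median was -0.23, with ranges of 8.28 to 8.75 and 7.84 to 8.19. The other 7 mural markers and 4 blood markers did not pass. The part of these values in the endothelial result was not tested.

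Leukocyte markers had 1 higher gene of 10 tested, *Csf1r* at 0.41, and a median of 0.15, with means of 9.14 to 9.34 in *Sox17f/f* and 9.21 to 9.43 in *Sox17ed/ed* uteri. Stromal markers had 1 gene lower, the proteoglycan *Dcn* at -0.42, and 1 higher, *Hoxa10* at 0.34, of 10, with a median of 0.03 and ranges of 13.91 to 13.95 and 13.93 to 14.03. Epithelial markers, of which the targeted cells are part, had 2 lower and 4 higher genes of 10 and a median of 0.34, with ranges of 10.89 to 11.10 and 11.13 to 11.44. The keratins *Krt19* (2.10), *Krt7* (1.46) and *Krt8* (0.69) were higher, whereas the claudins *Cldn3* (-1.16) and *Cldn7* (-0.71) were lower. Of 6 genes listed as mesothelial markers 1 was lower and 3 were higher, with a median of 0.25, while *Msln* (-0.44) and *Upk1b* (0.24) did not pass. Which cells made these RNAs cannot be told in whole uterus, so the counts describe the listed genes and not the mesothelium. *Upk3b* was higher, with a log2 fold change of 1.56, as was *Wt1*, with 0.26. *Krt5* was at least 5.25-fold higher, since no *Sox17f/f* array read it well above background. *Lrrn4* went the other way, at least 1.86-fold lower, since no *Sox17ed/ed* array read it well above background. Beside the 19.0% of all genes that were called, 20% of stromal and 10% of leukocyte markers were called. The share was 20% for erythroid and platelet markers, 25% for smooth muscle and 30% for mural markers. It was 60% for epithelial and 66.7% for mesothelial markers, beside 42.9% for the other endothelial markers. The part of these lists in the endothelial values was not tested.

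**Figure D4:**
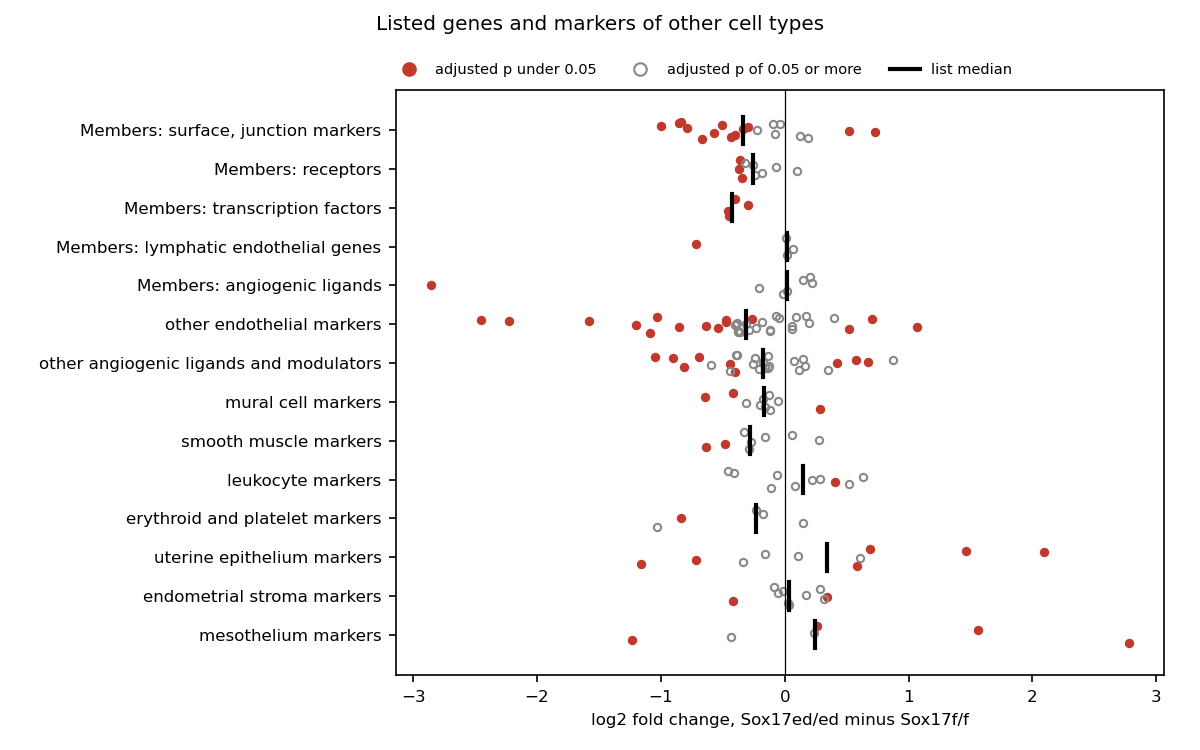
Log2 fold change of each gene in the lists of endothelial and angiogenesis genes and of markers of other cell types, with filled points for genes that passed an adjusted p of 0.05 and a bar for the median of the list. The medians are -0.33 for surface and junction genes, -0.43 for transcription factors, -0.31 for other endothelial markers, 0.02 for lymphatic genes and for ligands, and 0.34 for epithelial markers. *Sele*, *Lrrn4* and *Krt5* were not well above background in 1 genotype, so their points are fitted values and not measured folds.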

How the data were processed

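Uterine RNA of 3 *Sox17f/f* and 3 *Sox17ed/ed* mice, separate biological samples grouped by genotype as labelled, was read on 6 Agilent arrays. The authors deposited each array's spot intensity, the background-subtracted processed signal made with Feature Extraction (11.0.1.1 in the file headers, 9.1 in the submitters' processing notes), and a table within 0.191% of its mean over each probe's spots. Here control and outlier spots were left out, and the deposited intensity was converted to log2, quantile normalized as in the study's methods and averaged per probe. Quantile normalization assumes like distributions on all arrays. Of 55681 probes, 26582 were named by RefSeq accession (GRCm38.p6). Probes were kept where at least 3 of 6 arrays were well above background, and the brightest per gene tested with limma 3.58.1 in R 4.3.3 (lmFit, eBayes, Benjamini-Hochberg over 14790 genes). On simulated data with 3 arrays against 3, the fits recovered 27% of log2 changes of 0.5 and 73% of log2 changes of 1. The fits can therefore miss such changes, and for a gene that did not pass, the confidence interval shows which sizes remain possible. By the probe tested, the intervals of *Emcn*, *Ptprb*, *Robo4* and *Nrp1* hold no log2 change of 0.5 in either direction. Those of *Apln*, *Tek*, *Clec14a*, *Flt4* and *Vegfc* hold a change of 0.5 but none of 1. Non-control spots well above background were 60.7% to 65.7% in *Sox17f/f* and 56.8% to 59.4% in *Sox17ed/ed* uteri, and the number of arrays limits the precision.

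The genes, lists and tests were chosen with earlier results of these data known. Every member is named, with values on each array for those called and for *Pecam1*, *Cdh5*, *Kdr* and *Vegfa*. Of other lists, the 3 largest calls in each direction are named, and of markers of other cell types those that passed the test in part. All arrays were on 1 slide, each genotype in its own line of it, so slide line and genotype cannot be told apart. Replicate numbers did not pair the arrays. Alternatives were another scaling, a normexp correction (offset 50, on median rather than mean spot signal, since the files used here hold the former), other filters, probe rules and variance models, the deposited table, a replicate block, the methods' thresholds and leaving out each array. *Apela* was not analysed here.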

Additional observations from a re-analysis of the deposited data

How the results depend on the processing

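In all 15 alternatives none of the 22 called genes changed direction, and no called increase was lost. The count of lower genes, 20 of the 43 and 19 of the 36 endothelial genes, was 10 to 16 and 9 to 15 when 1 array was dropped, 9 and 8 at the methods' thresholds, and 10 and 9 with the replicate number as a block. The numbers did not pair the arrays (correlations of deviations 0.06, -0.11 and 0.00 for numbers 1, 2 and 3, with only the arrays numbered 1 correlating best with each other), and the block took the calls over all genes from 2805 to 1860. These calls were 1850 at the methods' thresholds, 1659 without *Sox17f/f* replicate 1 and 1808 without *Sox17ed/ed* replicate 1. On dropping 1 array the median log2 fold change was -0.34 to -0.28 for endothelial genes and 0.00396 to 0.13 for ligands. Values that changed sign, none of them called, ranged with arrays left out from -0.080 to 0.031 for *Robo4*, -0.030 to 0.28 for *Clec14a*, -0.067 to 0.29 for *Flt4*, -0.048 to 0.13 for *Lyve1*, -0.13 to 0.15 for *Prox1*, -0.15 to 0.11 for *Angpt1* and -0.059 to 0.13 for *Angpt2*. The 75th percentile shift gave *Prox1* -0.026, and the normexp correction gave *Nrp1* 0.021 and *Angpt2* -0.061 and called 1 ligand higher, *Vegfb*. Calls were also gained by *Nrp2* with the mean of its probes, *Eng* with the intensity trend and *Tek* without *Sox17ed/ed* replicate 3. Without the filter on dim probes 15 genes were lower. The cause of these differences was not tested, other than that fewer arrays or a block leave fewer degrees of freedom. Signal well above background was present for all 43 genes on every array, so background did not limit which could be tested.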
